A study of Mus musculus with 12 samples.

Results

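The 8 genes described here encode enzymes of heme synthesis, namely Alas1, Alas2, Alad, Uros, Urod, Cpox, Ppox and Fech in the order in which they act. They were chosen by symbol, without regard to their values, and are 8 of the 22924 genes listed in lung or spleen. RNA was sequenced from lung and spleen of 3 wild-type (WT) and 3 β3-/- mice, which gives 12 libraries, 1 for each mouse and tissue. All mice were of the C57BL/6 background at an age of 8 to 10 weeks, and the β3-/- mice carry a constitutive deletion of Itgb3, the gene of integrin β3. In lung Itgb3 read 3.68 to 4.39 FPKM in WT and 1.29 to 1.94 FPKM in β3-/- mice, and in spleen 8.50 to 10.6 and 3.52 to 4.02 FPKM. FPKM counts fragments per length of transcript and per total of mapped fragments, so levels of different genes can be set side by side. The WT mice were bought and the β3-/- mice were a gift, and littermates are not mentioned in the methods. The Y-linked genes Eif2s3y and Ddx3y were at 0 in all 6 β3-/- libraries and at 16.9 to 34.3 FPKM in all 6 WT libraries, so genotype, sex and source cannot be told apart for any of the enzymes.

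Heme is the iron-containing ring that carries oxygen in hemoglobin and electrons in cytochromes. Its synthesis starts in the mitochondrion, where 5-aminolevulinate synthase joins glycine and succinyl-CoA, continues in the cytosol with the building of the ring, and ends in the mitochondrion, where ferrochelatase inserts iron. The first step has a pair of enzymes. ALAS1 is made in all tissues, is the rate-limiting enzyme outside the red cell lineage and is repressed by heme, whereas ALAS2 is made in erythroid cells, where it serves hemoglobin synthesis. In the mouse the spleen is a site of red cell production as well as of red cell removal, and the lung is a tissue rich in blood.

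Regulatory sequences of the pair of synthase genes, and a window of Cpox, are shown first. The messenger of Alas2 carries an iron-responsive element in its 5′ untranslated region, a hairpin bound by iron regulatory proteins that hold back translation when iron is scarce. A search for C, 5 bases, the loop CAGTGN and 5 bases that pair with the former, over 137 coding transcripts of the 8 genes in GENCODE vM39, matched 19 of the 21 transcripts of Alas2 and none of the other genes. It lies in exon 1, at chrX:149330454-149330481 (GRCm39, plus strand), and is printed with the loop in capitals.
Alas2 iron-responsive element: ttggttcgtcctCAGTGCagggcaacag

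GATA1, the main transcription factor of red cell precursors, recognizes the letters AGATAA as well as AGATAG on either strand. Sites spelled TGATAA or, more rarely, TGATAG were taken as matches too. They were searched in the 250 bases before the annotated starts in RefSeq (GRCm38.p6), a build that differs from that of the element above. Windows were found for 7 of the 8 enzymes, all but Fech, with 10 windows in all, of which 3 held a match (1 of Alas2, 1 of Cpox and 1 of Uros). Of all 32851 windows of 27025 genes, 26.5% held at least 1 match. The windows of Alas2 (chrX:150547167-150547416, plus strand), Cpox (chr16:58669958-58670207, plus strand) and the outer start of Alas1 (chr9:106247955-106248204, minus strand) are printed with matches in capitals, to show the pair of synthase genes and the window in which matches adjoined.
Alas2 promoter: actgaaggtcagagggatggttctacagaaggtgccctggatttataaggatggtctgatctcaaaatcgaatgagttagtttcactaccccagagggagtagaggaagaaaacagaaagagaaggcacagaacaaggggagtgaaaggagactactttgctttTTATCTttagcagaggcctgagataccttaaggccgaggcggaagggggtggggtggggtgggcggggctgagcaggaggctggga
Cpox promoter: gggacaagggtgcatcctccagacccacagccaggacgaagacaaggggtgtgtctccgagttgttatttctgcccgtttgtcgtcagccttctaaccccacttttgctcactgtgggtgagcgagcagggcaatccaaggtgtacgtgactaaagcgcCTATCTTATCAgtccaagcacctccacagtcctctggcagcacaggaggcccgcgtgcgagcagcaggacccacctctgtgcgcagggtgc
Alas1 promoter: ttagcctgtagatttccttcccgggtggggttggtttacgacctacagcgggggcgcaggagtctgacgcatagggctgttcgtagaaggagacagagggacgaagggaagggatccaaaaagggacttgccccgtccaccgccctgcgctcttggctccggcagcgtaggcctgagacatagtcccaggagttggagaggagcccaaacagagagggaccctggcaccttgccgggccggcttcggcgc

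In the Alas2 window the match began 86 bases before the start. In the Cpox window the matches began 91 and 86 bases before the start and shared 1 base. Neither window of Alas1 held these letters. The letters CCNCNCCC, bound by factors of the KLF family, were counted on either strand, where matches may overlap. They matched 4 times in the Alas2 window, 1 and 2 times in the Alas1 windows and 2 and 4 times in those of Alad. The Uros windows held 1 and 0 matches, and those of Urod, Cpox and Ppox held none. Of all windows 45.9% held at least 1 match and 27.3% held 2 or more. A match is a description of the letters, and binding was not measured.

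Alas1 lies on chromosome 9 of GRCm39 from 106110642 to 106135734 (minus strand), and Alas2 on chromosome X from 149330371 to 149353634 (plus strand). Alad lies on chromosome 4 from 62423283 to 62438587, Uros on chromosome 7 from 133285987 to 133311801 and Urod on chromosome 4 from 116844840 to 116851610, all on the minus strand. Cpox lies on chromosome 16 from 58490414 to 58537999 (plus strand), Ppox on chromosome 1 from 171100969 to 171109385 (minus strand) and Fech on chromosome 18. Protein-coding genes on the opposite strand overlap Alas2 (Apex2), Uros (Bccip), Urod (Zswim5), Cpox (Gpr15) and Ppox (B4galt3). Whether the counting used strand is not given in the sources used here, so reads of these partners cannot be told apart from those of the enzymes.

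In WT lungs Alas1 was the most abundant of the 8 transcripts and Alas2 was among the middle ones. Alas1 read 106, 60.7 and 134 FPKM in WT libraries 1, 2 and 3, a mean of 100.1 ± 36.8 FPKM (SD, n = 3). Alad followed at 31.1 ± 3.84 FPKM and Urod at 25.5 ± 3.48 FPKM, and the ranges of Alad and Urod overlapped. Alas2 (18.2 ± 2.67 FPKM), Fech (17.7 ± 4.24 FPKM) and Ppox (16.2 ± 1.73 FPKM) did not differ beyond their spread. Cpox (8.37 ± 0.246 FPKM) and Uros (6.51 ± 0.153 FPKM) were lowest, and each stood apart from its neighbours in all 3 libraries.

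In WT spleens the order was another one, with Alas2 first and Uros last by their means. Alas2 read 136, 29.4 and 73.5 FPKM in WT libraries 1, 2 and 3, a mean of 79.8 ± 53.8 FPKM (SD, n = 3). Alas1 read 14.0015, 15.7 and 14.6 FPKM, the most even of the 8 enzymes. Urod was at 30.8 ± 8.26 FPKM, Fech at 29.7 ± 19.6 FPKM and Alad at 22.3 ± 7.76 FPKM. The ranges of Urod, Fech, Alad, Ppox (18.4 ± 3.17 FPKM), Cpox (13.3 ± 6.95 FPKM) and Uros (11.3 ± 3.57 FPKM) overlapped from each to the next. Library 1 was the highest of the WT spleens for all members but Alas1.

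**Figure D1:**
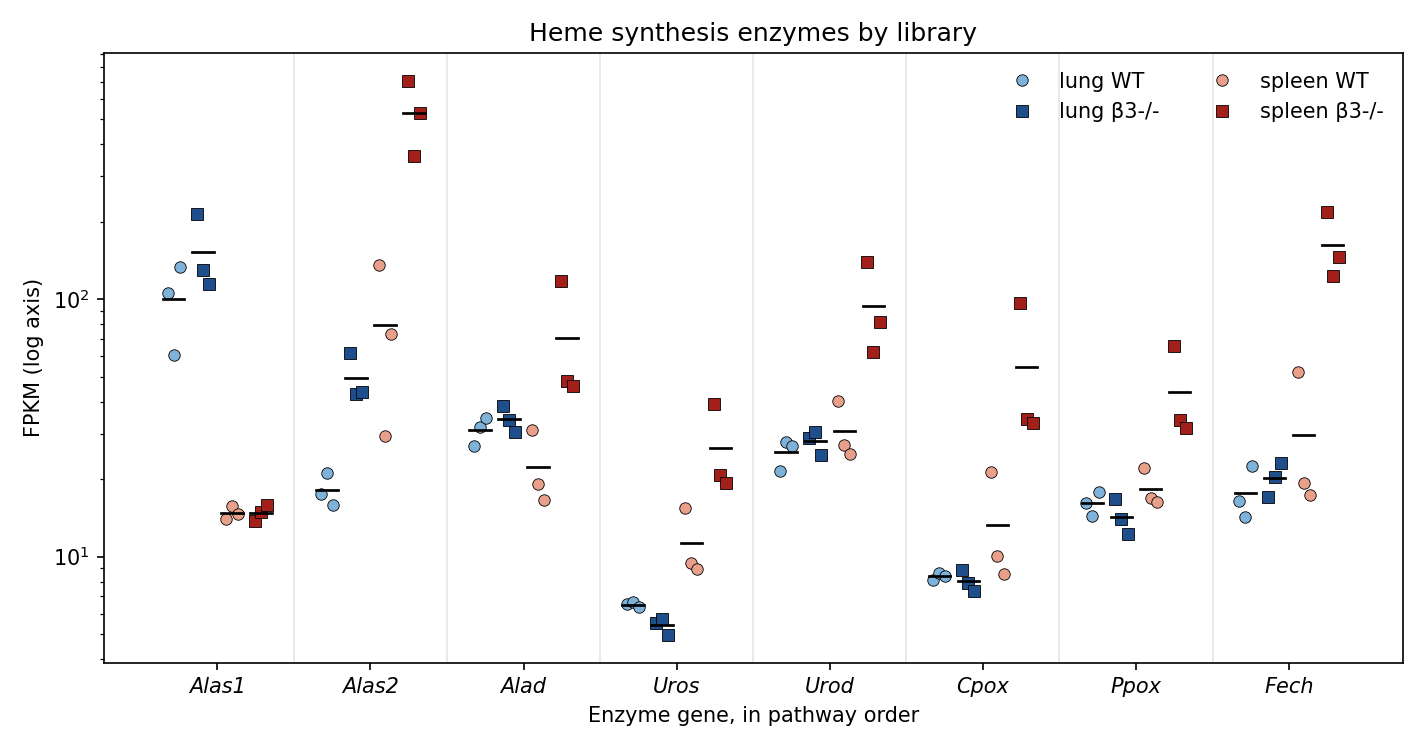
FPKM on a log axis of the 8 enzymes in pathway order in each of the 12 libraries, with circles for WT, squares for β3-/- mice, blue for lung, red for spleen and a black line at the mean of 3 libraries. Alas1 sits at 60.7 to 215 FPKM in lung and at 13.7 to 15.9 FPKM in spleen, whereas Alas2 reaches 359 to 706 FPKM in β3-/- spleens.

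Between the tissues of WT mice 3 of the 8 enzymes differed, both synthases among them, in a fit of all 12 libraries. Alas1 was lower in WT spleens than in WT lungs by a log2 difference of -2.68 (SE 0.27, adjusted P = 3.25e-06), and all 3 spleen libraries lay below all 3 lung libraries. Alas2 was higher in WT spleens, with a log2 difference of 1.88 (SE 0.44, adjusted P = 0.00238) and no overlap. Uros, which closes the ring of uroporphyrinogen III, was higher by 0.74 (SE 0.25, adjusted P = 0.0211). These were the members that passed an adjusted P of 0.05, against 71.1% of all genes, and the 5 others had an adjusted P of 0.169 to 0.523. The Uros call was lost without lung WT library 3 (adjusted P = 0.0508) and without spleen WT library 1 (0.0961).

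In β3-/- mice all 8 enzymes differed between the tissues, against 67.8% of all genes. Alas1 was again lower in spleens than in lungs (log2 difference -3.31, SE 0.27, adjusted P = 6.29e-07), and the 7 others were higher in spleens. The differences were largest for Alas2 (3.39, SE 0.44), Fech (2.97, SE 0.37), Cpox (2.57, SE 0.39) and Uros (2.20, SE 0.25), and smaller for Urod (1.67, SE 0.26), Ppox (1.53, SE 0.24) and Alad (0.90, SE 0.32), with adjusted P values of 1.21e-05 to 0.0274. The Alad call was lost without lung β3-/- library 2 or 3 or spleen β3-/- library 1 (adjusted P = 0.0594, 0.0755 and 0.0940) and after rescaling to TPM (0.0888). Lung and spleen libraries of a number came from the same mouse.

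In lungs of β3-/- mice compared with WT, Alas2 rose and the 7 other enzymes did not pass the test, which does not show that they were alike in both genotypes. The Alas2 call was lost in 10 of 20 alternatives, and Alas2 was not tested against the other members. WT mice 1, 2 and 3 had 17.5, 21.1 and 15.9 FPKM in lung, against 61.6, 43.0 and 43.4 FPKM in β3-/- mice 1, 2 and 3. All β3-/- lungs thus lay above all WT lungs, as did 6.86% of all tested genes. The log2 fold change on the scale of FPKM plus 0.1 was 1.43 (SE 0.17, 95% interval 1.02 to 1.83, adjusted P = 0.0319). DEGs were genes past both 1 in absolute log2 fold change and 0.05 in adjusted P. This made 1 of 8 members a DEG higher in β3-/- lungs, against 0.284% of all tested genes. The call rested on the libraries and on the fit, since the adjusted P rose to between 0.0572 and 0.179 when WT library 1 or 3 or any β3-/- library was left out.

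The lung libraries fell into a pair of groups by Ubb, a ubiquitin gene, that crossed the genotypes. Ubb read 570 to 688 FPKM in WT libraries 1 and 2 and β3-/- library 3, and 4.52 to 4.97 FPKM in WT library 3 and β3-/- libraries 1 and 2. Within these groups the log2 difference of Alas2 was 1.17 (2 WT and 1 β3-/-) and 1.69 (1 WT and 2 β3-/-), and with the group as a term of the fit it was 1.43 with an adjusted P of 0.0868.

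Alas1, the ubiquitous enzyme, read 215, 130 and 115 FPKM in β3-/- lungs, a mean of 153 ± 53.8 FPKM (SD, n = 3) against 100.1 ± 36.8 FPKM in WT. The ranges overlapped, and the log2 fold change of 0.63 (SE 0.34, 95% interval -0.18 to 1.44, adjusted P = 0.511) did not pass the test. Uros read 6.54, 6.65 and 6.35 FPKM in WT lungs and 5.54, 5.72 and 4.97 FPKM in β3-/- lungs. All β3-/- lungs lay below all WT lungs, as did 12.6% of all tested genes, but the log2 fold change of -0.27 (SE 0.10) had an adjusted P of 0.367. The 5 remaining enzymes overlapped between the genotypes and had log2 fold changes between -0.18 for Ppox and 0.20 for Fech (adjusted P = 0.658 to 0.849). Over Alad, Uros, Urod, Cpox, Ppox and Fech the 95% intervals stayed between -0.51 and 0.65. The median log2 fold change of the 8 members in lung was 0.15, against -0.02 for all tested genes.

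In spleens of β3-/- mice compared with WT, 6 of the 8 enzymes rose, from Alas2 at the first step to Fech at the last, whereas Alas1 had the same mean in both genotypes. Alas2 read 706, 359 and 529 FPKM in β3-/- libraries 1, 2 and 3 against 136, 29.4 and 73.5 FPKM in WT. Every β3-/- spleen exceeded every WT spleen, although the WT values differed among themselves by 4.65-fold. The log2 fold change was 2.94 (SE 0.52, 95% interval 1.73 to 4.16, adjusted P = 0.0312). In all, 6 of the 8 members were DEGs higher in β3-/- spleens, against 2.64% of all tested genes, and none was lower. All β3-/- spleens lay above all WT spleens for 7 of the 8 members, against 11.4% of all tested genes.

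The last enzyme, ferrochelatase, gave the second largest rise. Fech read 52.3, 19.3 and 17.4 FPKM in WT spleens and 218, 123 and 146 FPKM in β3-/- spleens (log2 fold change 2.59, SE 0.42, adjusted P = 0.0303). The groups were apart by more than the whole range of the WT values. In FPKM Fech was at 0.237 to 0.656 of the level of Alas2 in WT spleens and at 0.276 to 0.341 in β3-/- spleens, so the relation of the last to the first erythroid step lay within the WT range.

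Of the cytosolic steps, Alad forms porphobilinogen and Urod removes carboxyl groups from the closed ring. Alad read 31.2, 19.2 and 16.6 FPKM in WT spleens and 117, 48.2 and 46.2 FPKM in β3-/- spleens (log2 fold change 1.57, SE 0.39, adjusted P = 0.0482). Urod read 40.3, 27.1 and 25.2 FPKM in WT and 139, 62.4 and 81.8 FPKM in β3-/- spleens (1.56, SE 0.30, adjusted P = 0.0345). Both were apart between the genotypes in all libraries. Uros read 15.4, 9.48 and 8.95 FPKM in WT spleens and 39.2, 20.8 and 19.4 FPKM in β3-/- spleens. It was also apart in all libraries, as were 11.4% of tested genes in this direction, but its log2 fold change of 1.19 (SE 0.31) had an adjusted P of 0.0523 and was no DEG.

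Cpox and Ppox, which oxidize the ring in the mitochondrion, were DEGs as well. Cpox read 21.3, 10.04 and 8.56 FPKM in WT spleens and 96.7, 34.3 and 33.2 FPKM in β3-/- spleens (log2 fold change 1.96, SE 0.48, adjusted P = 0.0481). Ppox read 22.0, 16.8 and 16.3 FPKM in WT and 65.6, 33.8 and 31.7 FPKM in β3-/- spleens (1.18, SE 0.28, adjusted P = 0.0457). For both, the lowest β3-/- library exceeded WT library 1, the highest of its group. Library 1 was the highest β3-/- spleen for all members but Alas1.

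Alas1 read 13.7, 14.9 and 15.9 FPKM in β3-/- spleens, a mean of 14.8 ± 1.07 FPKM against 14.8 ± 0.854 FPKM in WT (SD, n = 3). Its log2 fold change was 0.01 (SE 0.10, 95% interval -0.23 to 0.24, adjusted P = 0.972), a direction that turned to -0.20 after rescaling to TPM (adjusted P = 0.222). The median of all tested genes in spleen was -0.16, and it was -0.36 after rescaling to TPM and -0.0019 with median-of-ratios scaling. The median of the 8 members was 1.56.

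The spleen calls lay close to the threshold. None of the 8 members was a DEG without WT library 2 or 3 or β3-/- library 1 or 3, and 7 were without β3-/- library 2, while the log2 fold changes of the members other than Alas1 stayed between 0.84 and 3.46. DEGs among all genes moved likewise, from 514 to 68, 57, 155 and 117 in the former fits and to 782 in the latter. WT library 2 and β3-/- library 2 held pancreas transcripts (summed FPKM of 11 pancreas genes 2375 and 268, against 17.9 to 26.3 in the others); without both, an alternative chosen after seeing the data, no member and 51 of all genes were DEGs, and the members other than Alas1 had log2 fold changes of 1.22 to 2.61.

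**Figure D2:**
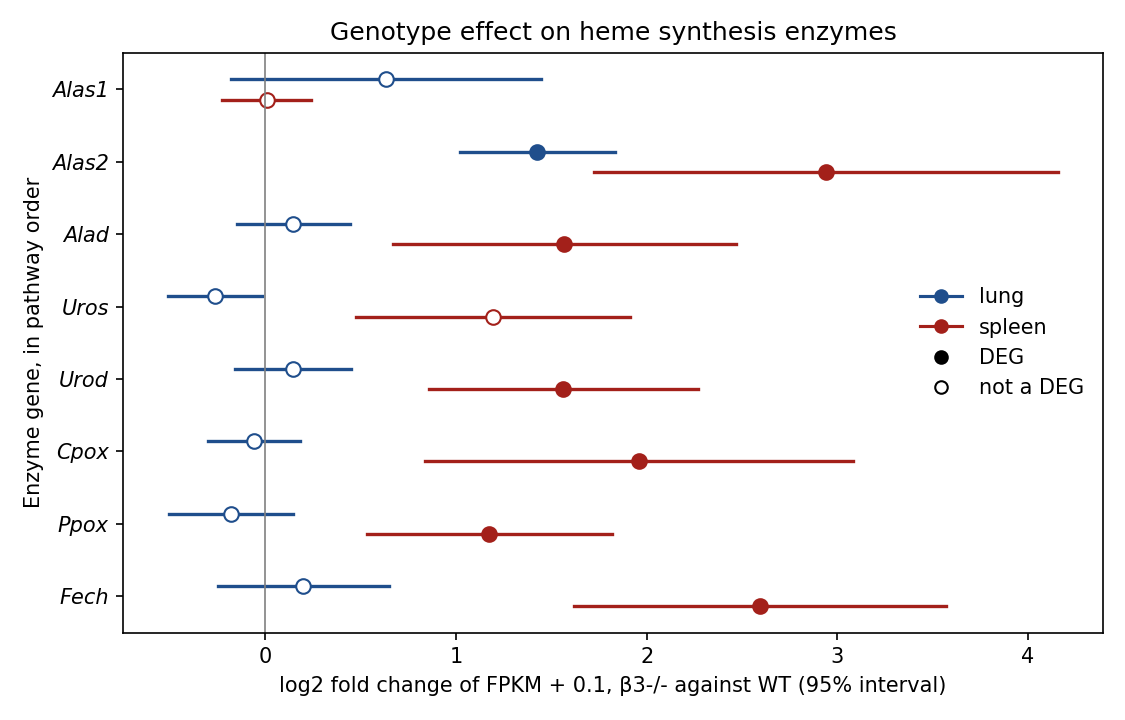
Log2 fold change of FPKM plus 0.1 in β3-/- against WT mice with its 95% interval from limma, for lung (blue) and spleen (red), with filled points for DEGs. In lung only the interval of Alas2 lies above 1, and in spleen the points of the members other than Alas1 lie between 1.18 and 2.94.

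The difference between the tissues in the genotype effect was tested by an interaction term. It was 2.40 for Fech (SE 0.52, adjusted P = 0.0614), 2.02 for Cpox (SE 0.56, adjusted P = 0.101), 1.52 for Alas2 (SE 0.62, adjusted P = 0.216) and -0.63 for Alas1 (SE 0.38, adjusted P = 0.396) on the log2 scale, as the effect in spleen minus that in lung. None of the 8 members passed an adjusted P of 0.05 in limma, against 0.417% of all genes. An unadjusted P below 0.05 was reached by 7 members, but the share of all genes at that threshold was not counted, so this count cannot be judged. The rise of 6 enzymes in spleen and of 1 in lung is therefore not shown to differ between the tissues. With sample weights 4 members passed, and 3 and 4 passed without spleen WT library 1 and spleen β3-/- library 2. The number of all genes that passed rose in the same fits from 68 to 694, 214 and 885.

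The balance of the pair of synthases was read as the share of Alas1 in the sum of Alas1 and Alas2. In lung Alas1 made up 85.9%, 74.2% and 89.4% in WT libraries 1, 2 and 3 and 77.7%, 75.1% and 72.6% in β3-/- libraries. In spleen it made up 9.31%, 34.8% and 16.6% in WT and 1.91%, 3.97% and 2.92% in β3-/- libraries. The tissues did not overlap in either genotype, the genotypes overlapped in lung, and they did not overlap in spleen. The log2 ratio of Alas2 to Alas1 in spleen was 2.17 ± 1.20 in WT and 5.10 ± 0.545 in β3-/- mice (SD, n = 3 each), a difference of 2.94 (exact permutation test, two-sided, p = 0.1), and 0.1 is the smallest p that 3 against 3 can give. In lung it was -2.39 ± 0.792 in WT and -1.60 ± 0.199 in β3-/- mice, a difference of 0.80 (exact permutation test, two-sided, p = 0.3).

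**Figure D3:**
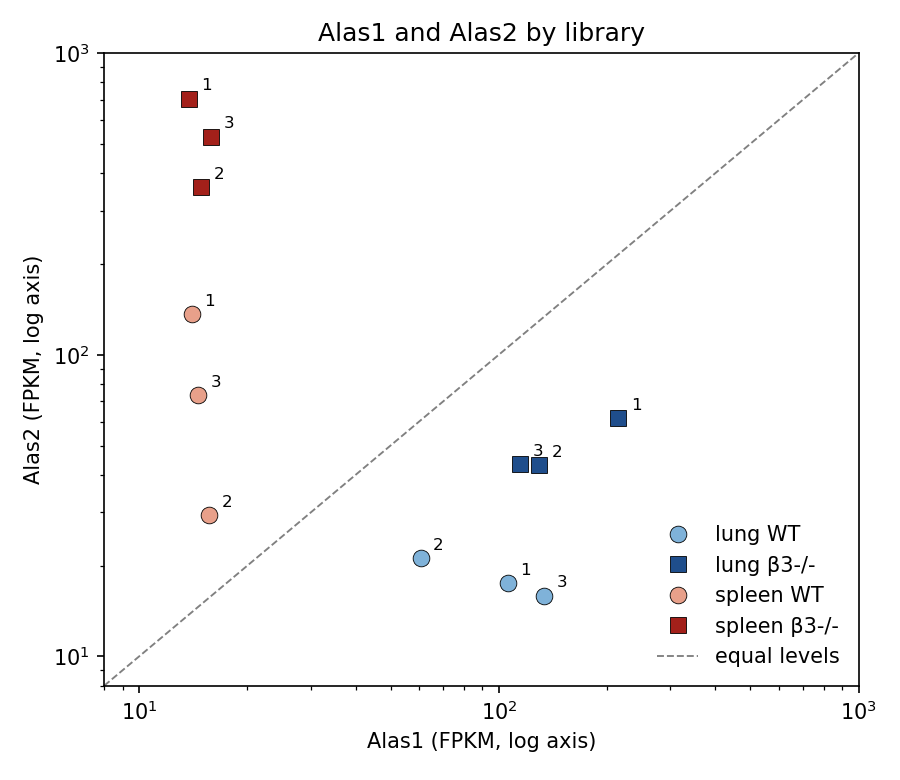
Alas2 against Alas1 in FPKM on log axes in the 12 libraries, numbered by mouse, with a dashed line where both are equal. The 6 lung libraries lie below the line with Alas1 at 72.6% to 89.4% of the sum, and the 6 spleen libraries lie above it.

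As a share of the summed FPKM of the 8 enzymes, Alas1 was the largest in every lung and Alas2 in every spleen. Alas1 was 32.7% to 54.8% of the sum in lungs and 0.984% to 10.7% in spleens. Alas2 was 5.98% to 11.4% in WT lungs and 15.1% to 16.6% in β3-/- lungs. It was 41.0%, 20.0% and 40.6% in WT spleens 1, 2 and 3 and 50.6% to 58.5% in β3-/- spleens. Its share thus did not overlap between the genotypes in either tissue. Nor did the shares of Alad, Uros and Ppox, which were lower in β3-/- mice. Shares of a sum depend on each other, so a rise of Alas2 lowers the others. In WT spleen 2 the share of Urod, 18.4%, was close to that of Alas2. The summed FPKM was 186 to 266 and 261 to 392 in lungs of WT and β3-/- mice, and 147 to 333 and 696.5 to 1396 in their spleens.

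The erythroid content of the spleen libraries was higher in β3-/- mice, as were the levels of the 7 enzymes other than Alas1, of which 6 were DEGs. In bulk tissue, more cells of a type and more RNA per cell cannot be told apart. All 18 erythroid markers were DEGs higher in β3-/- spleens (median log2 fold change 4.22, range 2.15 to 4.85, against -0.16 for all tested genes, of which 2.64% were DEGs in this direction). The 14 markers other than globins summed to 326, 34.4 and 26.9 FPKM in WT spleens and 2390.4, 889.9 and 1280.4 FPKM in β3-/- spleens. Library 1 was thus the most erythroid of either genotype, as it was the highest for the 7 enzymes. From WT spleen 2 to 3 these markers fell, and so did the enzymes from Alad to Fech. Alas2 (29.4 and 73.5 FPKM) and the summed globins (7355 and 21616 FPKM) rose between the same libraries. Without library 1 of both genotypes, an alternative chosen after seeing the data, 6 members were DEGs, with Uros in place of Ppox, among 342 DEGs of 15071 genes tested. Other lists moved in spleen as well. Of 9 platelet and megakaryocyte genes 3 were DEGs, all higher, and their summed FPKM was 126 to 196 in WT and 476, 324 and 1498.5 in β3-/- libraries 1, 2 and 3. Of 9 neutrophil genes 3 were also DEGs, all higher, with sums of 343 to 406 in WT and 1065, 699 and 4440.6 in β3-/- spleens, so that β3-/- library 3 stood far above the others for both lists. Of 8 cell cycle genes 2 were DEGs, Mki67 and Birc5, both higher, and the list summed to 199 to 268 in WT and 288 to 588 in β3-/- spleens. Of 6 red pulp macrophage markers 2 passed, both higher (493 to 680 and 673 to 729), against 3.66% of all tested genes in this direction. Of 7 B cell markers 5 passed, all lower, against 5.39% of all tested genes (2039 to 2157 and 1097 to 1596). None of 6 T cell markers passed in limma, and 4 were lower at an unadjusted P below 0.05, against 26.3% of all tested genes (320 to 436 and 238 to 336). Their part in the enzyme levels was not tested.

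In lung, as in spleen, nearly the whole summed level of the erythroid markers came from globins. In spleens the 4 globin genes summed to 7355 to 29580 FPKM in WT and 62228 to 121560 FPKM in β3-/- mice. In lungs they summed to 4784 to 7276 FPKM in WT and 10852 to 16333 FPKM in β3-/- mice. The 14 other markers together reached 6.01 to 11.4 FPKM in WT lungs and 10.9 to 11.9 FPKM in β3-/- lungs. Rhag, a membrane protein of the Rh complex, was at 0 in all WT lungs and at 0.145, 0.102 and 0.0463 FPKM in β3-/- lungs. These values are near the floor, and Rhag did not pass the filter and was not tested in lung. The anion exchanger Slc4a1 read 0.206 to 0.314 FPKM in WT and 0.628 to 1.52 FPKM in β3-/- lungs. Of the 13 markers tested, 6 were higher in all β3-/- than in all WT lungs, against 6.86% of all tested genes, and 7 overlapped. The erythropoietin receptor Epor was at 3.78 to 5.06 FPKM in every lung. Of the transcription factors, Klf1 was at 0 in 4 of the 6 lungs, whereas Tal1 (3.08 to 7.61 FPKM) and Nfe2 (4.52 to 6.41 FPKM) were present in all 6. Of 13 erythroid markers tested in lung none passed an adjusted P of 0.05 in limma, against 0.328% of all tested genes, and 5 were higher in β3-/- lungs at an unadjusted P below 0.05, against 4.95%. Hbb-bs, an adult beta globin, read 2187, 2947 and 1993 FPKM in WT lungs and 6855, 4519 and 4639 FPKM in β3-/- lungs (log2 fold change 1.16, SE 0.29, adjusted P = 0.199). The platelet chemokine gene Ppbp was higher in β3-/- lungs (1.16, SE 0.15, adjusted P = 0.0412), 1 of 9 platelet genes that passed. Summed FPKM of the platelet genes were 40.0 to 47.8 in WT and 65.2 to 91.4 in β3-/- lungs, those of 6 T cell markers 36.9 to 53.0 and 56.3 to 63.1, and those of the pancreas genes 8.07 to 33.9 and 3.20 to 5.10, and their part in the level of Alas2 was not tested.

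Among the 5 genes whose levels were most like that of Alas2 over the 12 libraries, after centring each tissue, were 4 globins, Hbb-bs (Pearson r = 0.995), Hbb-bt (0.992), Hba-a1 (0.992) and Hba-a2 (0.991), of 11694 genes compared. Near-identical globin copies may share reads. The 5 genes most like Alas1 were Cp (0.950), Bok (0.923), Por (0.916), Ggct (0.904) and Phyhd1 (0.90), and this likeness came from lung, where r was 0.943 to 0.994, against -0.47 to 0.76 in spleen. The values were not centred on genotype, so a difference between the genotypes enters r. Libraries also share depth and composition, so the r values are a description.

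The level of Alas2 was also set against that of globin, as a description. Per 1000 FPKM of Hbb-bs, Alas2 read 7.98, 7.17 and 7.99 FPKM in WT lungs and 8.99, 9.52 and 9.36 FPKM in β3-/- lungs. In spleen it read 11.5, 9.52 and 8.76 FPKM in WT and 15.1, 14.7 and 15.2 FPKM in β3-/- libraries. The genotypes did not overlap in either tissue, and the geometric mean of β3-/- libraries was 1.21 times that of WT in lung and 1.52 times in spleen. The ratio was chosen after the values were seen, and an exact permutation test of 3 against 3 could not pass at 0.05.

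**Figure D4:**
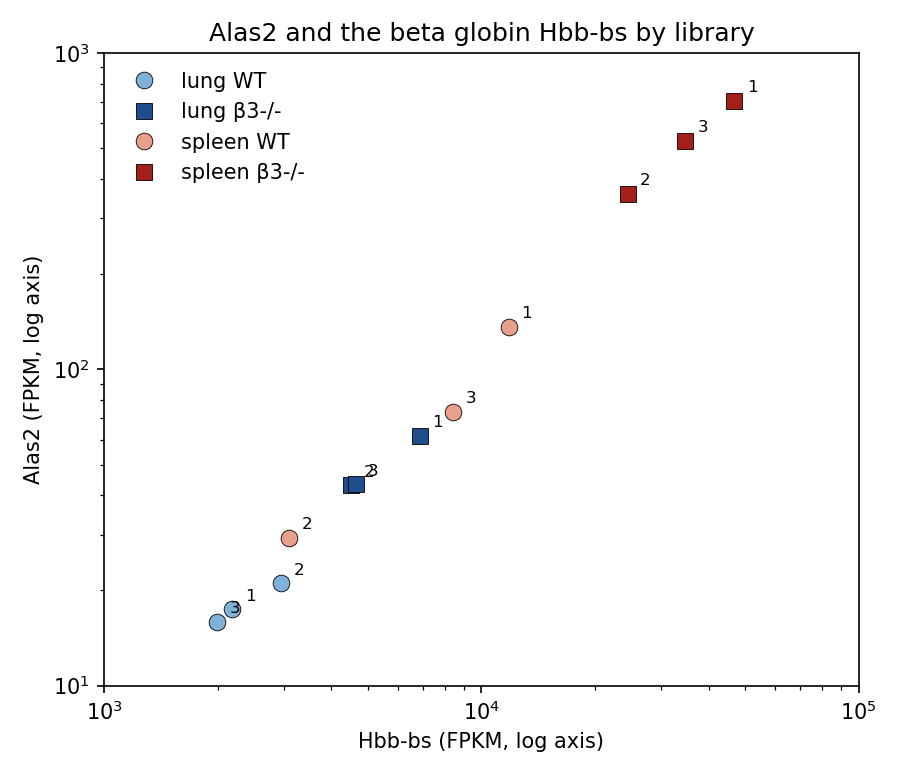
Alas2 against the beta globin Hbb-bs in FPKM on log axes in the 12 libraries, numbered by mouse. Alas2 runs from 15.9 FPKM in WT lung library 3 to 706 FPKM in β3-/- spleen library 1. Within each tissue, libraries with more Hbb-bs have more Alas2. Per 1000 FPKM of Hbb-bs, Alas2 is at 7.17 to 11.5 FPKM in WT and 8.99 to 15.2 FPKM in β3-/- mice. Within a tissue the genotypes do not overlap in this ratio.

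Genes around the pathway were taken as fixed lists and followed the enzymes in part. Of 16 genes of mitochondrial substrate supply and transport, 5 passed an adjusted P of 0.05 with higher and 2 with lower levels in β3-/- spleens, against 3.66% and 5.39% of all tested genes. Slc25a37, the erythroid importer of iron into the mitochondrion, read 61.2, 33.5 and 33.2 FPKM in WT and 290, 133 and 135 FPKM in β3-/- spleens (log2 fold change 2.08, SE 0.35, adjusted P = 0.0309). Abcb10, a mitochondrial transporter that red cell precursors need for heme synthesis, rose by 1.96 on the log2 scale (SE 0.43, adjusted P = 0.0415), and Glrx5, which serves iron-sulfur clusters, by 1.20 (SE 0.26, adjusted P = 0.0399). Fam210b (1.03) and Slc25a39 (0.90) passed as well.

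The broadly expressed iron importer Slc25a28 moved the other way (log2 fold change -0.42, SE 0.10, adjusted P = 0.0470). Suclg1, a subunit of the enzyme that interconverts succinate and succinyl-CoA, was also lower in β3-/- spleens (58.9, 61.1 and 59.5 against 37.9, 42.1 and 47.5 FPKM, log2 fold change -0.50, SE 0.10, adjusted P = 0.0363). Slc25a38, the erythroid glycine carrier, had a log2 fold change of 0.66 with an adjusted P of 0.113.

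Of 7 genes of iron uptake only Ncoa4, the receptor for ferritin breakdown, passed in spleen (0.63, SE 0.10, adjusted P = 0.0304). Among all tested genes 3.66% passed with higher levels in β3-/- spleens, the share for this list and the next. Tfrc, the transferrin receptor, read 30.1, 19.3 and 16.8 FPKM in WT and 104, 45.9 and 41.3 FPKM in β3-/- spleens (log2 fold change 1.44, SE 0.37, adjusted P = 0.0515). Its libraries did not overlap, as was so for 11.4% of all tested genes in this direction. Of 5 iron and heme sensors Eif2ak1, the heme-regulated kinase that holds back globin translation when heme is scarce, passed (0.82, SE 0.19, adjusted P = 0.0461). None of 4 genes of heme export and trafficking and none of 3 genes of heme a synthesis and heme c attachment passed in limma, though 2 of the former (higher) and 1 of the latter (lower) had an unadjusted P below 0.05, against 9.67% of all tested genes higher and 26.3% lower. Of 6 regulators of Alas1 none passed in either tissue in limma, with 2 at an unadjusted P below 0.05 in spleen, both lower, and 1 in lung, higher. The shares of all tested genes were 26.3% lower in spleen and 4.95% higher in lung.

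Heme breakdown was read from 4 genes. Blvrb, a biliverdin reductase that is abundant in red cells, passed in spleen (1.15, SE 0.26, adjusted P = 0.0430), against 3.66% of all tested genes in this direction. Hmox1, the inducible heme oxygenase of red pulp macrophages, read 462, 307 and 555 FPKM in WT and 366, 414 and 421 FPKM in β3-/- spleens (log2 fold change -0.10, SE 0.21, adjusted P = 0.748). In lung Hmox1 read 23.0, 17.96 and 40.5 FPKM in WT and 59.9, 61.8 and 51.2 FPKM in β3-/- mice (1.16, SE 0.28, adjusted P = 0.188). The lungs did not overlap, as was so for 6.86% of all tested genes in this direction.

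Of 8 erythroid transcription factors and cofactors, Tal1 (2.95, SE 0.62), Nfe2 (2.75, SE 0.54), Gata1 (2.58, SE 0.54) and Gfi1b (2.33, SE 0.56) were DEGs higher in β3-/- spleens (adjusted P = 0.0348 to 0.0468), and the cofactor Ldb1 was lower (-0.47, SE 0.11, adjusted P = 0.0457). Among all tested genes 2.64% were DEGs higher in β3-/- spleens, and 5.39% passed an adjusted P of 0.05 with lower levels. Klf1 read 15.3, 0.94 and 1.21 FPKM in WT and 62.0, 19.1 and 21.9 FPKM in β3-/- spleens (adjusted P = 0.0645). In lung Gata1 was at 0.38 to 0.58 FPKM in all 6 libraries. In lung no gene of the lists of substrate supply, iron uptake, sensors, export, breakdown, heme attachment, Alas1 regulators or erythroid transcription factors passed in limma, against 0.328% of all tested genes. At an unadjusted P below 0.05, 3 of these genes were higher in β3-/- lungs and 3 were lower, against 4.95% and 7.7% of all tested genes.

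**Figure D5:**
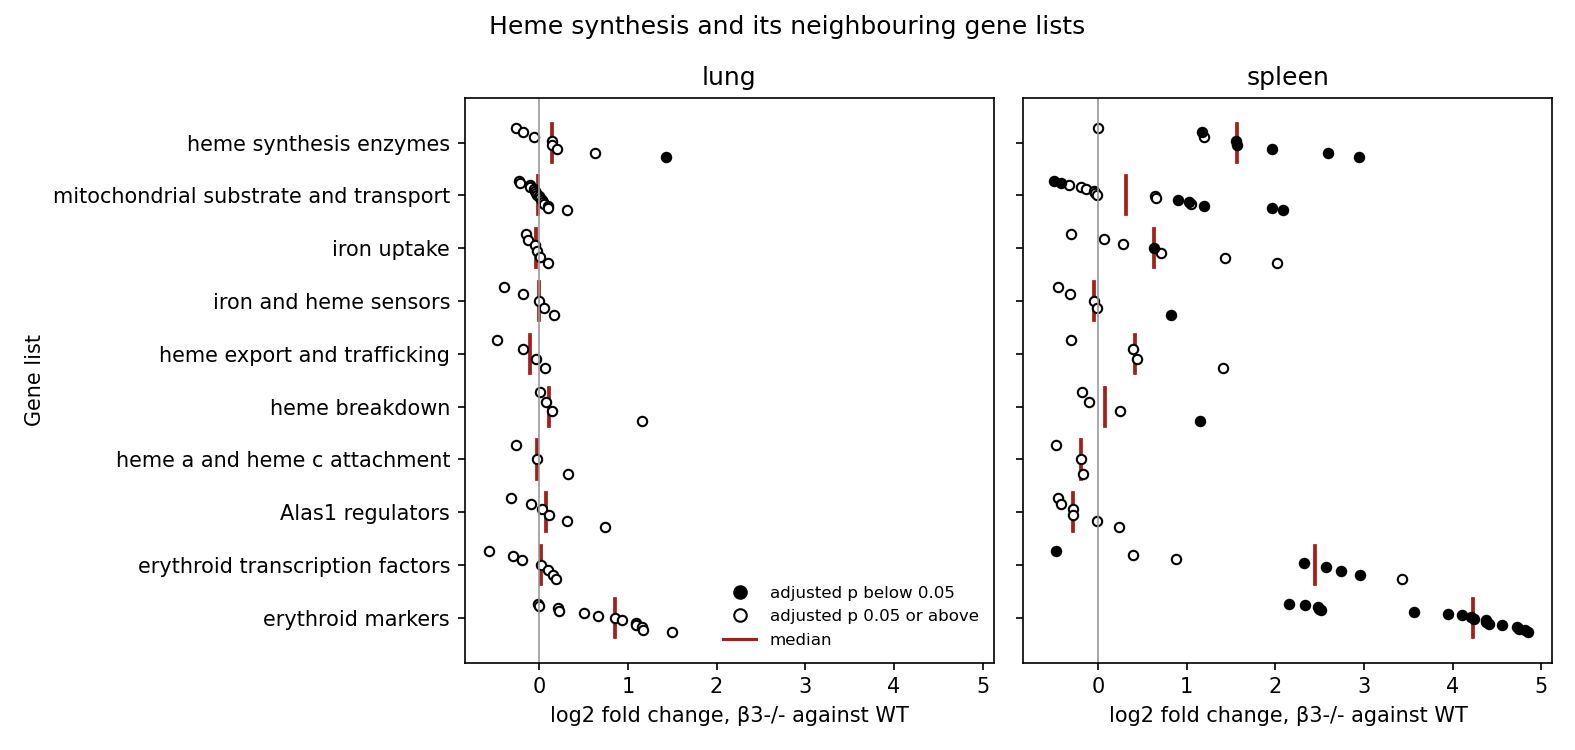
Log2 fold change in β3-/- against WT mice of each tested gene of the 8 enzymes, of 8 neighbouring lists and of erythroid markers, in lung and spleen, with filled points for an adjusted P below 0.05 and a red line at the median of the list. In spleen the median of the enzymes (1.56) lies between those of the transport list (0.31) and the erythroid markers (4.22), and in lung Alas2 is the only filled point.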

How the data were processed

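The authors' reads had passed through Trimmomatic, HISAT2 (GRCm39) and featureCounts, whose versions are not given in the sources used here. The methods name TRIzol, whereas the labels name a Qiagen kit and a SMARTER mRNA library kit. The deposited values are FPKM, with no tool named. The smallest value above 0 was 1e-06, so counts could not be recovered and depth is unknown. FPKM of a library summed to 455850 to 593175.

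Genes with at least 0.1 FPKM in at least 3 of 6 libraries of a tissue were tested with limma-trend (limma 3.58.1, R 4.3.3) on log2(FPKM + 0.1), 15869 in lung and 15480 in spleen, or 16312 in a fit of all 12 libraries for tissues and interaction. Benjamini-Hochberg adjustment ran over every tested gene. Single values were tested by exact permutation (SciPy 1.17.1). Only the limma fits were tested on simulated data with known changes. The limma P values set a difference of group means against the spread between libraries within groups of 3 mice. That spread was pooled over the groups of a fit and moderated over all tested genes. Lung and spleen of a number came from the same mouse, and their deviations correlated at 0.0378 to 0.0721 in WT and 0.111 to 0.179 in β3-/- mice.

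All 8 enzymes were named. Of each other list the called genes, up to 4, or the 2 highest were taken by rule, and others were named for their role after their values were seen. Enzymes and lists were chosen with earlier results of these data known. A further enzyme of the pathway was not analysed here, and single values of some other genes are not reported here. Alternatives were pseudocounts, filters, scalings, weights, blocks, library groups and each library left out.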

Additional observations from a re-analysis of the deposited data

Results flagged for a closer look

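Uros and Suclg1 were flagged, among the enzymes and lists around the pathway, because their genotypes lay apart in opposite directions in the tissues. Their p values come from the same values and are no independent support. The share of all tested genes with this pattern was not counted. For Uros, all β3-/- lungs lay below all WT lungs and all β3-/- spleens above all WT spleens. The difference of the genotype effect was 1.46 on the log2 scale (spleen minus lung, SE 0.36, unadjusted p = 0.00179, adjusted p = 0.0800 in limma), which did not pass. Suclg1 showed the reverse, with all β3-/- lungs above (log2 fold change 0.31) and all β3-/- spleens below WT (-0.50), a difference of -0.81 (SE 0.15, unadjusted p = 0.000263, adjusted p = 0.0513 in limma), which did not pass either.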

How the results depend on the processing

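The count of members called in lung, 1, was 0 without a filter on low values, without trend, with replicate number as a block, with all 12 libraries in 1 fit and with the Ubb group as a term, and 0 to 1 with a library left out, while DEGs among all genes, 50, were 39, 44, 20, 113, 53 and 7 to 47. The count in spleen, 6, was 1 without a filter (Fech), 3 with median-of-ratios scaling, 3 after rescaling without globin and immunoglobulin genes, 0 without trend, 0 without both libraries with pancreas transcripts (chosen after seeing the data) and 0 to 7 with a library left out. DEGs among all genes, 514, were 201, 390, 482, 162 and 51 in these fits and 57 to 782 with a library left out. Of the 12 alternatives that kept this count within 1.5 times, the replicate block gave adjusted p of 0.000894 to 0.00889 for the 7 members other than Alas1, Uros among them. The labels state no pairing of WT with β3-/- mice by number. Deviations of WT and β3-/- libraries of the same number correlated at -0.316 to 0.00307 for lungs and -0.0249 to 0.205 for spleens. Those of unlike numbers correlated at -0.235 to 0.244 for lungs and -0.358 to 0.19 for spleens. Shared handling by number was not tested. The interaction count, 0, was 4 with sample weights and 0 to 4 with a library left out, where all genes that passed, 68, numbered 694 and 3 to 885. The counts between tissues, 3 and 8, stayed at 2 to 4 and 7 to 8 in all alternatives, the block by mouse included. Alas1 in spleen reversed to -0.197 after rescaling to TPM, -0.0149 with sample weights and, with a library left out, ranged from -0.0447 to 0.0594 (-0.0307 and -0.00174 among them). The log2 ratio of Alas2 to Alas1 ranged over its alternatives from 0.46 to 1.23 (lung) and from 2.30 to 3.49 (spleen), with the block by replicate number giving 0.795 and 2.94. Causes were not tested. Depth is unknown, so counting error could not be given.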
